A study of Mus musculus with 9 samples.

Results

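The comparison described here sets 3 arrays of TM mouse embryonic fibroblasts (MEFs), which carry mutations in the endoplasmic reticulum (ER) thiol oxidase genes Ero1a, Ero1b and Prdx4, against 3 arrays of wild-type (WT) MEFs. These are 6 of the 9 arrays of the series, and the other 3 are of DM MEFs, in which Ero1a and Ero1b are mutated and Prdx4 is intact. Every gene with a single annotated symbol was taken, represented by its brightest probe set, which gave 19938 genes, all of them measured in the whole series as well. The genes and functions described lie, beyond counts over all genes, outside the TGF-β and P38 MAPK lists on which the study itself concentrated, and include Il6 and P4ha3, which it also assayed by PCR.

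In TM cells the genotype is Prdx4 m/y together with Ero1α m/m and Ero1β m/m, where m is a gene-trap allele for both ERO1 genes and a null allele for the X-linked Prdx4. DM cells carry the same ERO1 alleles with an intact Prdx4. The sample labels call the reference wild type, whereas the account of how MEFs were isolated gives control embryos an Ero1α m/+ genotype with Ero1β m/m and with Prdx4 +/+. The labels and the account alone do not settle which of these was put on the arrays, and Xist values that bear on the Prdx4 +/+ part are given below. All lines are labelled as C57B/L6 in background and as MEFs transformed with T antigen, a viral protein that overrides the normal limits on division. Cells were grown in DMEM with non-essential amino acids, antibiotics and Glutamax, and RNA was hybridised to Affymetrix Gene ST arrays. RNA was sampled in triplicate for each genotype, and whether from separate embryos or cultures is unstated in the sources used here, so the errors and p-values cover array-to-array spread alone, part or all of which may be technical. In RNA from a whole culture, fewer cells of one kind and less RNA per cell cannot be told apart.

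ERO1 and PRDX4 are oxidases of the ER. They pass disulfide bonds to protein disulfide isomerase, which hands them on to secreted and membrane proteins as these fold, and PRDX4 consumes hydrogen peroxide in doing so. Fibroblasts are a demanding setting for this chemistry, as they secrete collagen, elastic fibre proteins and many growth factors and cytokines with disulfide bonds.

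Values are the deposited RMA values on the log2 scale, in which a difference of 1 is a doubling. A gene was called when limma gave it an adjusted p under 0.05 and it differed by more than 1.5-fold, which is 0.585 on the log2 scale. Across probe sets, r was 0.994 to 0.997 between arrays of one genotype and 0.980 to 0.982 between TM and WT arrays. The medians of the 9 arrays lay between 7.62 and 7.72. For 583 genes the WT or the TM triplicate is a single repeated value, which understates their spread. Xist, which coats an inactive X, read 5.65, 5.76 and 5.69 in WT, 5.69, 5.64 and 5.83 in TM and 12.50, 12.54 and 12.63 in DM arrays, so comparisons with DM also cross this difference. The account of MEF isolation gives control and DM embryos alike as Prdx4 +/+, which the paper's breeding table uses for females. The WT arrays did not share the Xist level of the DM arrays, and the sex of the embryos was not tested.

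In TM MEFs 1115 of the 19938 genes (5.59%) exceeded WT and 709 (3.56%) lay below it, together 9.15%. The median difference over all genes was -0.03 on the log2 scale. The rises were larger than the falls: 558 of the genes called higher exceeded 2-fold, against 223 of those called lower. The 3 arrays of each genotype did not overlap in 43.4% of all genes, so a lack of overlap is common in this comparison and is not by itself a mark of a called gene. Against DM, TM MEFs were higher in 933 genes (4.68%) and lower in 720 (3.61%), together 8.29%. DM MEFs were higher than WT in 1052 genes (5.28%) and lower in 1131 (5.67%), together 10.9%. Each of these percentages is the background for the list counts of its comparison given below. The last comparison shares the WT arrays with the first, so its values are given side by side with those of TM, and a difference between the mutants is stated only from the direct test of TM against DM.

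**Figure D1:**
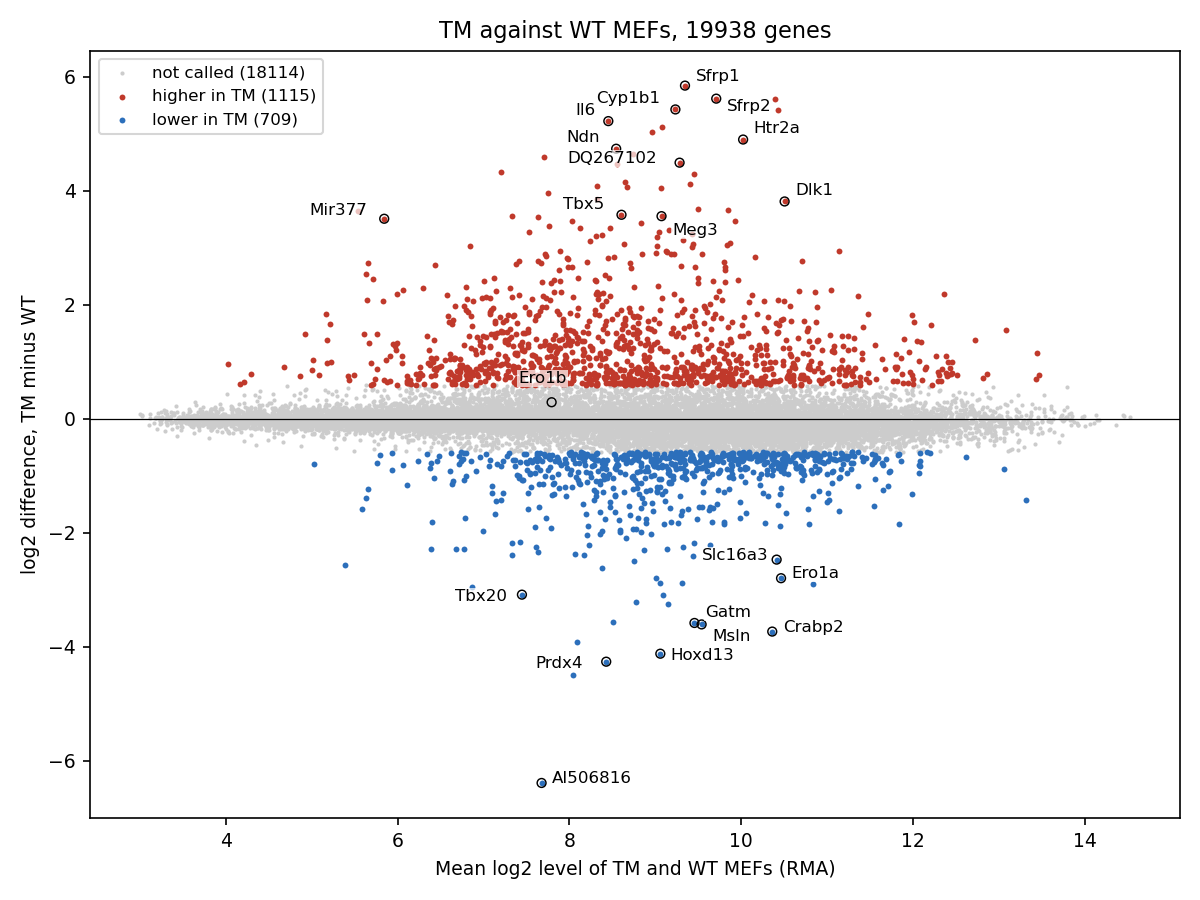
Difference between TM and WT MEFs (log2, vertical axis) against the mean level of both (log2, horizontal axis) for 19938 genes, 1 point per gene. Red points are the 1115 genes called higher and blue points the 709 called lower. The highest red point is Sfrp1 at 5.85 and the lowest blue point is AI506816 at -6.39.

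Of the 3 mutated genes, Prdx4 fell from 10.58, 10.66 and 10.44 in the WT arrays to 5.96, 6.75 and 6.17 in the TM arrays. Ero1a read 11.88, 11.87 and 11.84 in WT and 9.12, 8.98 and 9.10 in TM arrays, and fell by 2.80 on the log2 scale. Ero1b, the isoform best known from pancreatic beta cells, read 7.71, 7.72 and 7.52 in WT and 7.86, 7.93 and 8.02 in TM arrays, which is 0.29 higher and under the fold limit. These values bear out the labels for Prdx4 and Ero1a. They say nothing for Ero1b. The paper cites earlier work in which MEFs held no ERO1β that could be detected. Its control embryos are also described as Ero1β m/m. In addition, no source used here places the probes relative to the trapped part of each transcript.

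Of the 36 measured genes next to the 3 mutated loci 4 were called, a share close to the 9.15% over all genes. Of the 6 measured neighbours on each side of Prdx4, 0 passed in the limma fit, 0 at an unadjusted p under 0.05 with the fold limit and 0 by Student's test, and the closest were Phex at -0.56 and Acot9 at -0.49. Among the 12 neighbours of Ero1a, Txndc16, which encodes a thioredoxin-domain protein of the secretory pathway, rose by 1.03 on the log2 scale, and 1 other gene called lies on the TGF-β list. Beside Ero1b, the transcribed pseudogene Gpr137b-ps fell by 1.56, and Nid1, which encodes the basement membrane protein nidogen 1, rose by 0.78. In DM MEFs Nid1 differed from WT by 0.80 and Gpr137b-ps by -1.80.

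A single imprinted domain held 18 of the genes called higher. The Dlk1 to Dio3 domain of chromosome 12 is expressed from one parental copy: the maternal copy gives the long noncoding RNAs Meg3 and Rian together with snoRNAs and a large array of miRNAs, and the paternal copy gives Dlk1, Rtl1 and Dio3. Dlk1 encodes a membrane protein related to Notch ligands that holds back adipocyte differentiation. From Dlk1 to Dio3, 48 genes were measured, of which 18 were higher and 0 lower in TM than in WT MEFs, or 37.5% against 5.59% of all genes. This interval was singled out because of its values, so these counts describe it and test nothing.

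Mature miRNAs of the 6 miRNA genes with the largest differences are shown first, with the 3p arms of miR-379 and miR-411, in the order of their genes on the plus strand of chromosome 12, since each hairpin gives mature miRNAs with their own seeds. Sequences are from RefSeq (GRCm38.p6), 5′ to 3′, with the seed, bases 2 to 8, in capitals. The first listed begins at position 109709102 and the last ends at position 109740574.
miR-379-3p: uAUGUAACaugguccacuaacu
miR-411-3p: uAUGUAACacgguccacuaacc
miR-380-5p: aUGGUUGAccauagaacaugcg
miR-380-3p: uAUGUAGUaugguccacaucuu
miR-323-5p: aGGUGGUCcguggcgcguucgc
miR-323-3p: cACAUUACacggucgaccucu
miR-329-5p: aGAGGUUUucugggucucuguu
miR-329-3p: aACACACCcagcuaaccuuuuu
miR-300-5p: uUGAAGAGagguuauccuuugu
miR-300-3p: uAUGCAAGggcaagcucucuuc
miR-382-5p: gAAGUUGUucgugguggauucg
miR-382-3p: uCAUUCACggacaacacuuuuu
miR-377-5p: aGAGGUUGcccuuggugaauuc
miR-377-3p: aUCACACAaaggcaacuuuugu

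Among the 14 miRNA genes of the domain called higher, RefSeq lists 25 mature miRNAs with 24 distinct seeds. The pair that shares one is miR-379-3p and miR-411-3p, with the seed AUGUAAC. The probe sets carry the names of miRNA genes and read RNA from the hairpin region, so whether the signal came from the long precursor, the hairpin or the mature miRNA cannot be told apart.

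Meg3 read 7.44, 7.22 and 7.22 in the WT arrays, 7.62, 7.74 and 7.58 in the DM arrays and 10.999, 10.91 and 10.64 in the TM arrays. Dlk1 read 8.67, 8.59 and 8.53 in WT, 9.04, 9.04 and 8.90 in DM and 12.42, 12.40 and 12.42 in TM arrays. For both genes every TM array lay more than 2-fold above every WT and DM array. Dlk1 rose by 3.81 ± 0.060 on the log2 scale (SE, adjusted p = 5.67e-13 from limma) and Meg3 by 3.56 ± 0.093 (adjusted p = 2.36e-11). Against DM the differences were 3.42 and 3.20, with adjusted p = 1.11e-12 and 6.44e-11 from limma. Rian rose by 1.73 over WT, and the snoRNA gene DQ267102 rose by 4.50, from 7.21, 6.90 and 6.995 in WT to 11.68, 11.65 and 11.26 in TM arrays.

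The hairpin regions followed the same direction. Mir377 read 4.06, 4.03 and 4.17 in WT and 7.75, 7.38 and 7.67 in TM arrays, a difference of 3.51 (adjusted p = 3.52e-11 from limma). Mir323 rose by 2.26, Mir382 by 2.09, Mir380 by 1.85, Mir329 by 1.70 and Mir300 by 1.48. Lesser rises were those of Mir379 (0.96), Mir134 (0.95), Mir679 (0.92), Mir411 (0.91), Mir485 (0.88), Mir376b (0.65), Mir539 (0.62) and Mir487b (0.60). The last 3 lie close to the fold limit. Of the 40 miRNA genes of the domain that were measured, 26 were not called, and the paternally expressed Rtl1 and Dio3 differed from WT by 0.23 and 0.076. Elsewhere in the genome 6 of 257 measured miRNA genes were higher and 1 was lower in TM than in WT MEFs. In DM MEFs 0 of the 48 genes of the domain were called against WT in the limma fit, and 0 passed the fold limit with an unadjusted p under 0.05 from limma or Student's test. Tested directly, 16 of them were higher in TM than in DM MEFs.

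**Figure D2:**
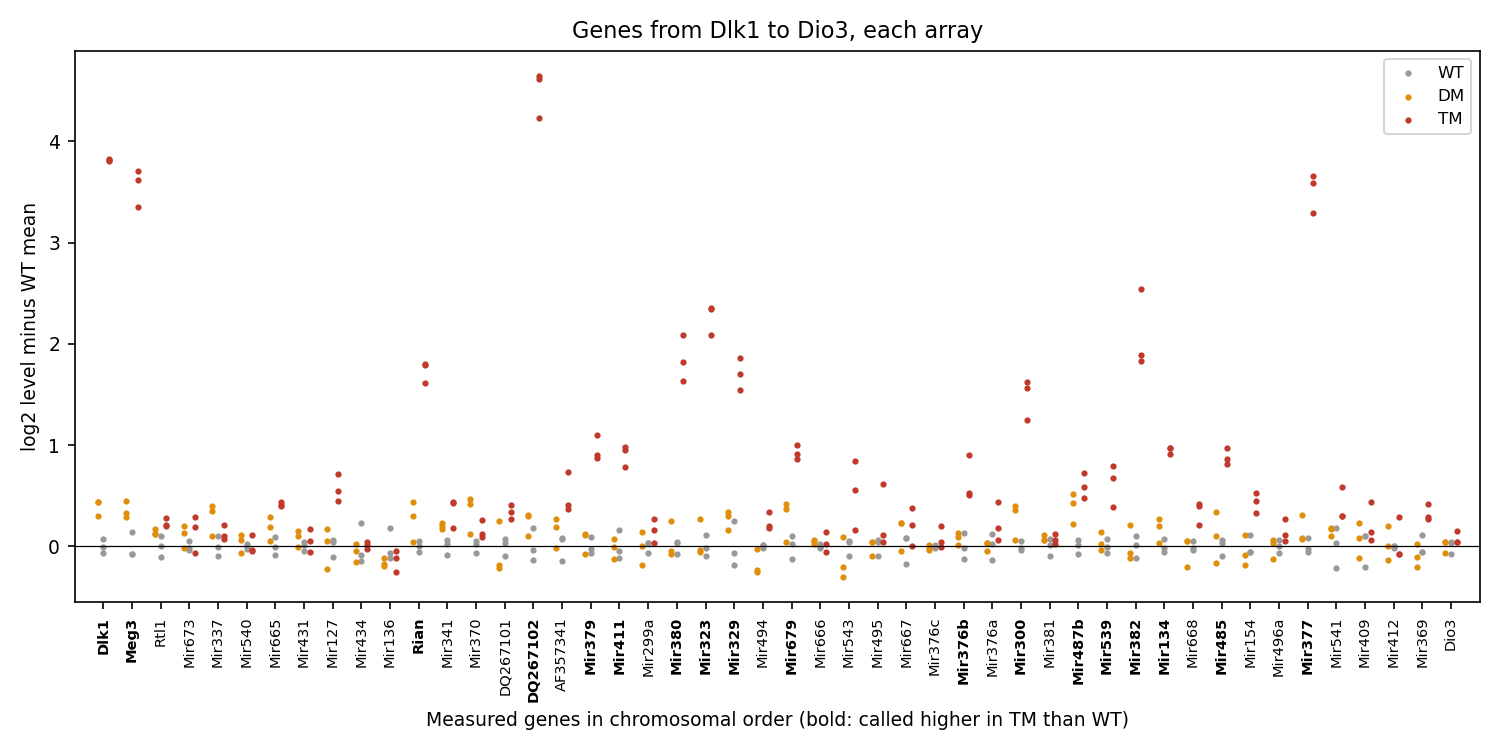
Level of each of the 48 measured genes from Dlk1 to Dio3 in each array, as the log2 difference from the mean of the 3 WT arrays (vertical axis), with genes in chromosomal order (horizontal axis). Grey points are WT, orange points DM and red points TM arrays. The 18 genes in bold are called higher in TM, and the red points of Dlk1, Meg3, DQ267102 and Mir377 stand more than 3 above the WT mean.

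Of 44 genes on a list of imprinted genes, which includes Dlk1, Meg3 and Rian, 14 were higher and 3 lower in TM than in WT MEFs, or 38.6% called against 9.15% of all genes, with a median difference of 0.145 against -0.03 over all genes. Ndn, which encodes the growth-restraining protein necdin, rose by 4.74, from 6.15, 6.10 and 6.27 in WT to 10.88, 10.86 and 10.999 in TM arrays. In DM arrays Ndn lay in between, at 8.88, 8.84 and 8.88. Mest rose by 3.24 over WT, Peg3, a zinc finger gene, by 2.66, the fetal growth factor gene Igf2 by 1.72 and Plagl1, a zinc finger factor, by 1.63. Grb10, which encodes an adaptor that restrains insulin receptor signalling, rose by 1.60. Cdkn1c and Phlda2, which also encode growth inhibitors, were among the members that fell, at -1.33 and -1.95. Plagl1 was not called in DM MEFs, at -0.12 from WT, and was 1.74 higher in TM than in DM (adjusted p = 3.88e-09 from limma).

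The 15 largest rises were, in order, Sfrp1, Sfrp2, Saa3, Cyp1b1, Lcn2, Il6, Tmem47, Serpina3n, Htr2a, Ndn, Rarres1, Mgst1, DQ267102, Gria3 and Ptprz1, between 5.85 and 4.33 on the log2 scale. Sfrp1 and Sfrp2 encode secreted proteins that bind Wnt ligands. Sfrp1 read 6.50, 6.56 and 6.20 in WT and 12.21, 12.25 and 12.35 in TM arrays, a 57.6-fold difference. Sfrp2 read 6.77, 6.92 and 7.01 in WT and 12.47, 12.52 and 12.57 in TM arrays, a 49.2-fold difference. In both genes the DM arrays lay in between, at 9.31, 9.49 and 9.41 for Sfrp1 and 10.31, 10.37 and 10.32 for Sfrp2, and TM was higher than DM by 2.87 and 2.19.

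Several of these genes encode receptors and enzymes. Htr2a, a serotonin receptor gene, read 7.69, 7.61 and 7.42 in WT, 7.90, 7.75 and 7.698 in DM and 12.41, 12.54 and 12.47 in TM arrays. Its rise of 4.90 ± 0.079 (SE, adjusted p = 5.83e-13 from limma) had no counterpart in DM MEFs, where the difference from WT was 0.21, and TM exceeded DM by 4.69 (adjusted p = 8.77e-13). Gria3, which encodes an AMPA-type glutamate receptor subunit, rose by 4.48 and Ptprz1, a receptor tyrosine phosphatase gene, by 4.33. Cyp1b1, a cytochrome P450 gene, and Mgst1, a membrane-bound glutathione transferase gene, rose by 5.43 and 4.59. In DM MEFs these last genes lay 6.04 and 5.85 over WT, and the TM minus DM differences were -0.61 and -1.26 (adjusted p = 4.67e-06 and 2.01e-07 from limma).

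The largest fall was that of AI506816, a long noncoding RNA gene, from 10.93, 10.80 and 10.89 in WT to 4.76, 4.56 and 4.12 in TM arrays. The DM arrays read 3.999, 4.18 and 4.04, so the TM and DM cells were both far below WT. After it came Sh2d1b1 (-4.49), a lymphocyte adaptor gene, the mutated Prdx4, Hoxd13 (-4.12) and Shtn1 (-3.92), which is known from neuronal polarity. The remaining 10 of the 15 largest falls were Crabp2, Msln, Gatm, Acpp, Tcim, Mab21l2, Dynap, Tbx20, Raet1d and Htra1, between -3.74 and -2.90. Gatm, which encodes the enzyme that starts creatine synthesis, read 11.22, 11.28 and 11.25 in WT and 11.02, 11.20 and 11.15 in DM but 7.74, 7.499 and 7.75 in TM arrays. It was thus 12-fold lower in TM than in WT (adjusted p = 3.35e-12 from limma), and its difference from DM was -3.46 (adjusted p = 6.21e-12). Tbx20, a T-box transcription factor gene, differed from WT by -3.09 in TM and by 2.00 in DM MEFs.

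Hox genes, which encode the homeodomain factors that set position along the body axis and the limb, showed the highest share of called members of any list. Of 37 measured, 18 were higher and 4 lower in TM than in WT MEFs, or 59.5% called against 9.15% of all genes. The median difference was 0.50. The calls followed the paralog number. Of the 25 measured genes of paralog groups 1 to 9, 18 were higher and 0 lower, whereas of the 12 of groups 10 to 13, 0 were higher and 4 lower in the limma fit. The lower genes were Hoxd13 (-4.12), Hoxd11 (-2.88), Hoxd10 (-1.74) and Hoxa11 (-1.74), which belong to the 5′ part of their clusters and pattern the limb. The remaining 8 genes of groups 10 to 13 lay between -0.34 and 0.091 from WT. In DM MEFs Hoxd13, Hoxd11, Hoxd10 and Hoxa11 were also below WT, at -2.89, -2.59, -2.74 and -1.90.

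The clusters differed in how TM and DM MEFs compared. In the Hoxa cluster, Hoxa5 read 7.98, 7.88 and 8.01 in WT, 7.495, 7.44 and 7.44 in DM and 10.63, 10.54 and 10.75 in TM arrays. Hoxa2, Hoxa3, Hoxa6 and Hoxa7 also rose, by 1.90, 1.37, 1.88 and 1.14, while in DM MEFs they were at 0.021, -0.024, -0.53 and -0.47 from WT. In all, 7 of the 10 measured Hoxa genes were higher in TM than in DM. In the Hoxb cluster, Hoxb2, Hoxb3, Hoxb4, Hoxb5, Hoxb6 and Hoxb9 rose in TM MEFs by 0.97 to 2.08. The Hoxc cluster behaved otherwise: Hoxc8 was at 7.37, 7.59 and 7.69 in WT, 10.52, 10.40 and 10.45 in TM and 12.27, 12.33 and 12.33 in DM arrays, and 0 of the 9 measured Hoxc genes were higher in TM than in DM in the limma fit, at an unadjusted p under 0.05 with the fold limit or by Student's test.

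**Figure D3:**
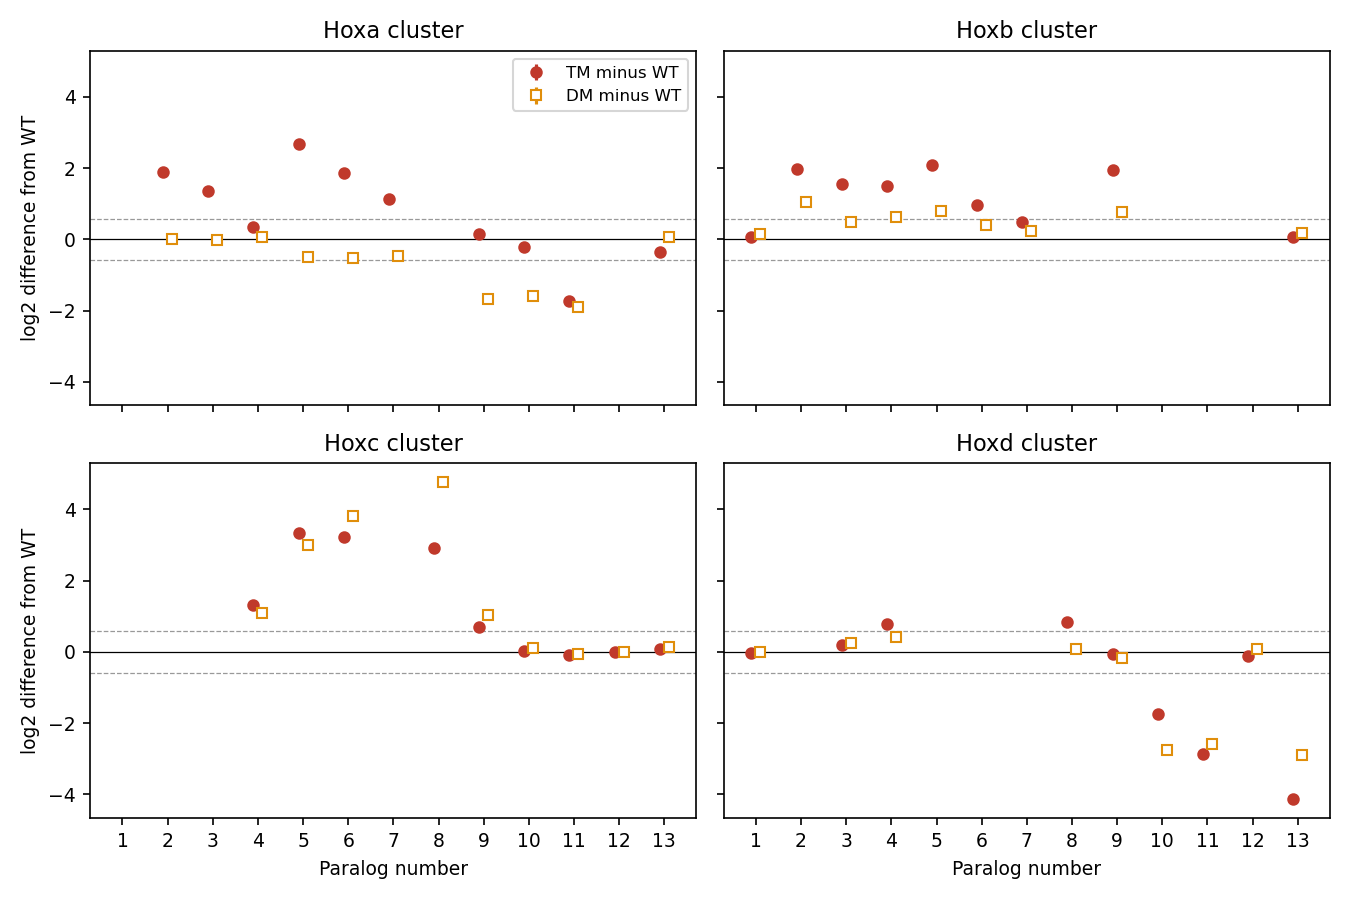
Difference of TM (red circles) and DM (open orange squares) from WT MEFs on the log2 scale (vertical axis) for the measured Hox genes of each cluster by paralog number (horizontal axis). Bars are SEs of the difference, mostly smaller than the symbols, and dashed lines mark 1.5-fold. Red circles above the upper line lie at paralog numbers 2 to 9 and those below the lower line at 10, 11 and 13.

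Transcription factors of mesoderm, limb and face showed calls in both directions. Of 109 measured, 27 were higher and 16 lower in TM than in WT MEFs, or 39.4% called against 9.15% of all genes. The median difference was 0.03. Tbx5, a T-box factor of forelimb and heart, read 6.83, 6.78 and 6.83 in WT, 6.26, 6.11 and 6.09 in DM and 10.45, 10.28 and 10.46 in TM arrays. It rose by 3.58 over WT and was 4.24 above DM (adjusted p = 7.43e-13 from limma). Gata6 and Foxp2 rose by 3.14 and 2.61, and Lhx9 by 2.20. On the other side were Tbx20, Alx1, a craniofacial homeobox gene (-2.30), Lhx8 (-2.19), Pitx1, a hindlimb factor (-2.02), and Pax3, a factor of neural crest and muscle precursors (-1.98). Tbx5 and Pitx1, which mark the forelimb and the hindlimb bud, are single members of this list. Pitx1 was named after its values were seen, and limb identity was not tested.

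**Figure D4:**
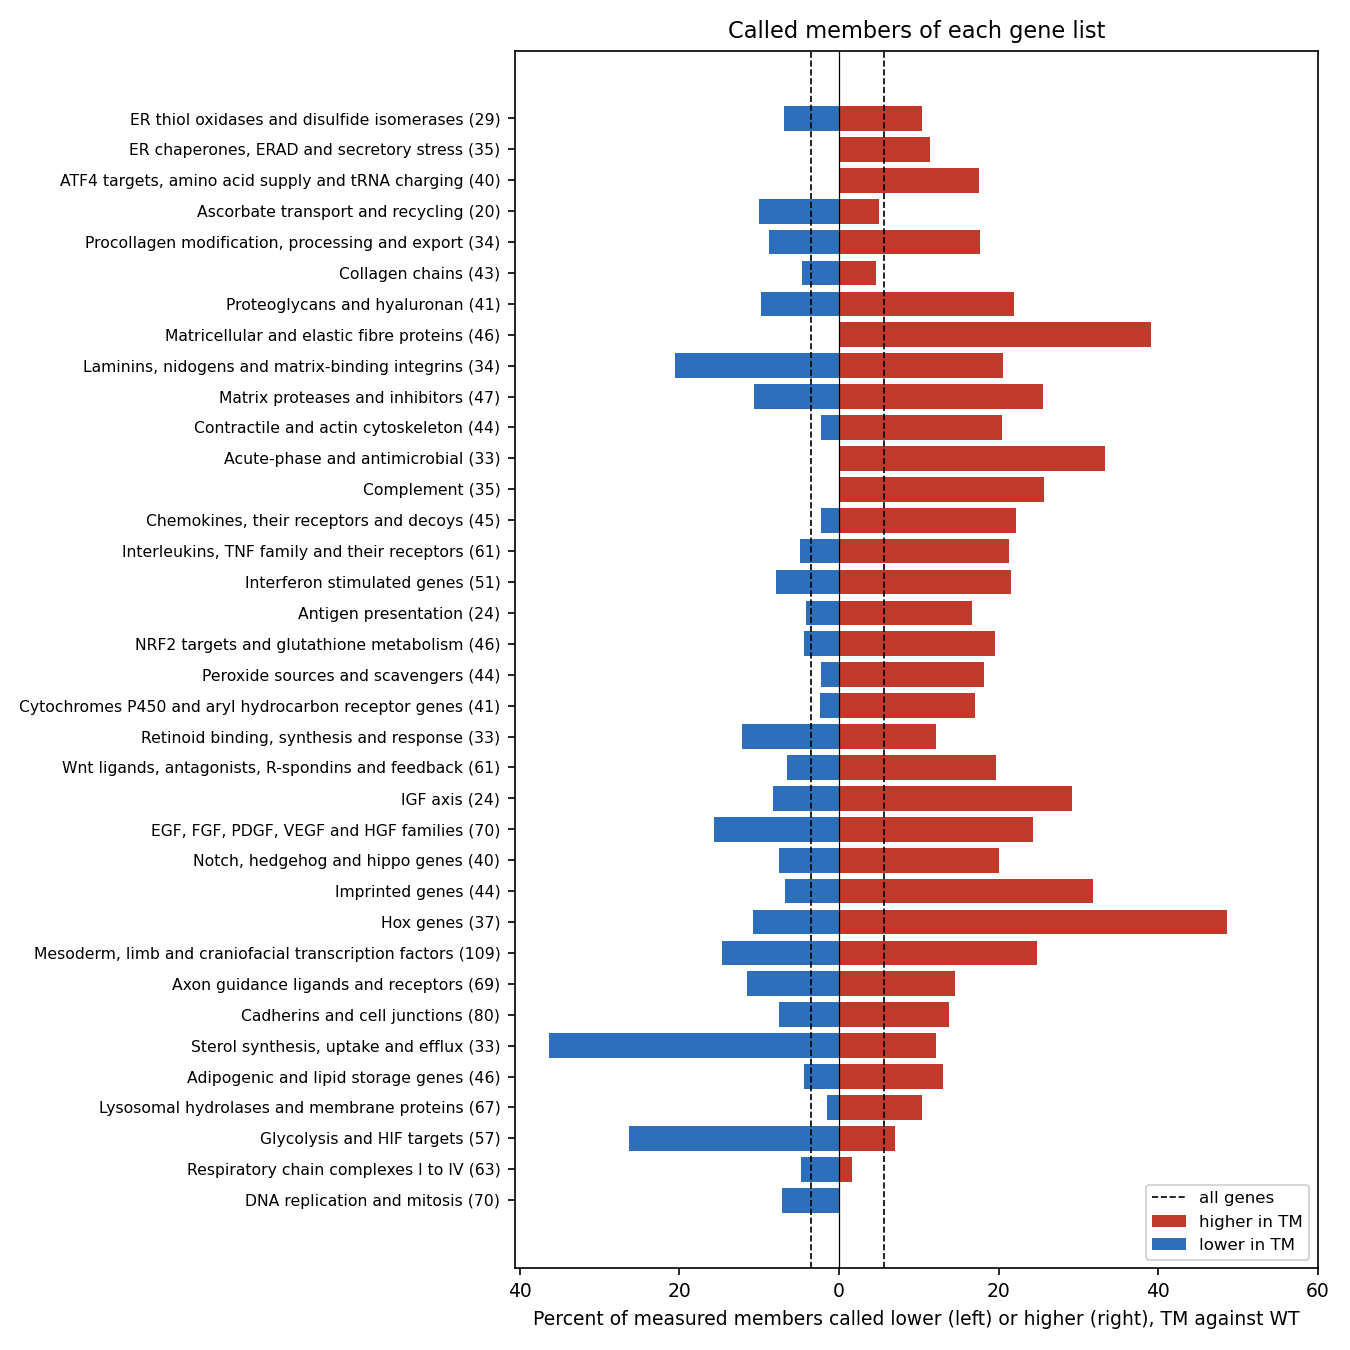
Percent of the measured members of each of 36 gene lists called higher (red, right) or lower (blue, left) in TM than in WT MEFs. The number of measured members follows each name, and dashed lines mark 5.59% higher and 3.56% lower over all genes. Hox genes have the longest red bar and sterol genes the longest blue bar.

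Elastic fibres give tissues recoil, and matricellular proteins modulate contacts between cells and matrix. Of 46 genes measured for both groups, 18 were higher and 0 lower in TM than in WT MEFs in the limma fit, or 39.1% called against 9.15% of all genes, with a median difference of 0.225. Svep1, a large adhesion protein gene, rose by 2.78, and the CCN family genes Ccn3 and Ccn5 by 2.40 and 2.07. Among elastic fibre genes, Fbn2 (fibrillin 2) rose by 1.20, Mfap5 by 1.16, Fbln1 by 1.21 and Fbln5 by 0.91. Thbs2, which encodes thrombospondin 2, read 10.55, 10.55 and 10.55 in WT, 7.72, 7.81 and 7.79 in DM and 11.86, 11.85 and 11.77 in TM arrays, so that TM lay above and DM below WT. Tested against DM, 19 of the 46 were higher and 2 lower in TM MEFs.

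The collagen chains themselves showed few calls. Of 43 measured, 2 were higher and 2 lower in TM than in WT MEFs, which is close to the share over all genes. Col12a1 rose by 1.04 and Col10a1 by 0.75, whereas Col18a1 fell by 0.84 and Col5a3 fell by 0.61. The main fibrillar chains Col1a1, Col1a2 and Col3a1 differed from WT by 0.032, 0.12 and -0.47. Of 34 genes for procollagen modification, processing and export 6 were higher and 3 lower, or 26.5% called against 9.15% of all genes. After quantile normalization or cyclic loess these counts were 8 and 2. P4ha3, a catalytic subunit of prolyl 4-hydroxylase, the ascorbate-dependent enzyme that stabilises the collagen helix, read 8.38, 8.15 and 8.43 in WT and 11.25, 11.28 and 11.56 in TM arrays. Tll1, a procollagen C-proteinase gene, rose by 2.48, and Lox, the collagen crosslinking oxidase gene, by 1.38. Plod2, a lysyl hydroxylase gene, fell by 0.65, and Pcolce2, an enhancer of C-proteinases, fell by 1.74.

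Small proteoglycans and cell-matrix receptors were divided. Of 41 proteoglycan and hyaluronan genes, 9 were higher and 4 lower, or 31.7% called against 9.15% of all genes. Cemip, whose product degrades hyaluronan, rose by 3.67, from 7.66, 7.67 and 7.66 in WT to 11.39, 11.41 and 11.21 in TM arrays. Among the leucine-rich proteoglycans that bind collagen, Prelp rose by 2.19, Lum by 2.06 and Dcn by 1.83, but Omd fell by 1.81. Of 34 laminins, nidogens and integrins, 7 were higher and 7 lower, or 41.2% called. The collagen-binding integrin genes Itga1 and Itga11 rose by 2.89 and 1.65, and Itga8 and the laminin chain gene Lama4 by 2.40 and 1.99. The laminin receptor genes Itga6 and Itga3 fell, at -1.87 and -1.16 from WT. Of 47 matrix proteases and inhibitors 36.2% were called. Among these, 12 were higher, including Adamts12 (1.57) and Adamts5 (1.20), and 5 were lower, including the collagenolytic cathepsin gene Ctsk (-1.68) and Mmp10 (-1.15).

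Of 44 genes of the contractile apparatus and actin cytoskeleton, 9 rose and 1, Csrp2, fell by 1.02. That is 22.7% called against 9.15% of all genes. The median difference was 0.23. Cnn1, which encodes the smooth muscle protein calponin, read 8.09, 8.24 and 8.24 in WT, 8.01, 7.89 and 7.93 in DM and 11.65, 11.67 and 11.67 in TM arrays. Actg2, smooth muscle gamma actin, rose by 3.09 and Myl9, a myosin regulatory light chain, by 2.19. In DM MEFs Actg2 and Myl9 were at -0.89 and -1.61 from WT, and TM exceeded DM by 3.98 and 3.80. Sorbs2, an actin adaptor gene, rose in both, by 3.97 in TM and 5.05 in DM.

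Acute-phase genes, which encode secreted defence proteins that tissues make under inflammatory cytokines, rose without an exception among those called. Of 33 measured, 11 were higher and 0 lower in TM than in WT MEFs, or 33.3% called against 9.15% of all genes. The median difference was 0.04. After median centring or quantile normalization 1 member was lower. The promoters of Lcn2 and Saa3, the members with the largest rises, are shown because both hold TTGCNNAA, a motif of the C/EBP factors that drive acute-phase genes. Lcn2 holds these letters on the gene's strand and Saa3 on the opposite strand, where they read as TTATGCAA below. They are the 250 bases before the RefSeq transcription start on GRCm38.p6, Lcn2 at chr2:32387740-32387989 and Saa3 at chr7:46715677-46715926, both written 5′ to 3′ along the minus strand, on which the genes lie, with the motif in capitals.
Saa3: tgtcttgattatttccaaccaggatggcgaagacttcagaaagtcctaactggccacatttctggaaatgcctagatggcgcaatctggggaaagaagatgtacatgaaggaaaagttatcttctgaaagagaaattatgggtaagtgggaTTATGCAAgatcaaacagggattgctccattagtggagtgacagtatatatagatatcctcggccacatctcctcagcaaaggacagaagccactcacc
Lcn2: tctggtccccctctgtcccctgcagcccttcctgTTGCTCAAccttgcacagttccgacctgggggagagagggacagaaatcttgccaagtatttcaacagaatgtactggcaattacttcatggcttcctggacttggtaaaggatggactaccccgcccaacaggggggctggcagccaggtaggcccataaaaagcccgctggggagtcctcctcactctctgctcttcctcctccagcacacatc
Of the 28 acute-phase members with a listed promoter, 17 held this motif on either strand, among them 6 of the 9 that rose, against 1569 of all 15614 genes with a listed promoter. Serpina3n, Itih5 and Chil1 are the members that rose without the motif in a listed promoter. A match describes the letters of the window and is not evidence that a factor binds there.

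Saa3, a serum amyloid gene, read 7.65, 7.56 and 7.56 in WT, 12.11, 12.12 and 12.11 in DM and 13.18, 13.19 and 13.24 in TM arrays. Lcn2, whose product binds bacterial iron carriers, read 7.69, 7.79 and 7.68 in WT, 12.74, 12.77 and 12.77 in DM and 13.11, 13.13 and 13.17 in TM arrays. All mutant arrays lay far above WT, and the TM arrays above the DM arrays by 1.09 for Saa3 and 0.37 for Lcn2, the latter under the fold limit. Serpina3n, a serine protease inhibitor gene, rose by 5.04, Chil1 by 2.89, Cp, which encodes the copper oxidase ceruloplasmin, by 2.61 and the pentraxin gene Ptx3 by 2.44. Lbp, a lipopolysaccharide binding protein gene, rose by 3.12 in TM and by 4.99 in DM MEFs.

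Among the complement and cytokine genes that were called, rises outnumbered falls. Of 35 complement genes 9 were higher and 0 lower, or 25.7% called against 9.15% of all genes. Serping1, the inhibitor of the first complement proteases, rose by 4.15, from 6.62, 6.49 and 6.60 in WT to 11.05, 10.64 and 10.48 in TM arrays, against 0.65 in DM. The protease gene C1s1 and the membrane regulator Cd55 rose by 2.42 and 2.29. Of 61 interleukin and TNF family genes 13 were higher and 3 lower, or 26.2% called. Il6, a main inducer of acute-phase genes, read 5.54, 6.26 and 5.72 in WT, 7.09, 7.54 and 7.22 in DM and 11.03, 10.97 and 11.19 in TM arrays. It was 37.4-fold higher in TM than in WT and 13.7-fold higher than in DM (adjusted p = 1.76e-09 from limma). Osmr, a receptor chain for oncostatin M, rose by 2.27, the shared receptor chain Il6st by 0.89 and the antagonist Il1rn by 3.67. Il33, an alarmin gene, was 0.62 above WT in TM and 3.98 above WT in DM. Of 45 chemokine genes 10 were higher, with Ccl20 (3.07), Cxcl16 (2.20) and Cxcl12 (1.72) in the lead, and Cxcl10 fell by 0.95. Called chemokine genes were 24.4% of those measured.

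Interferon stimulated genes differed between the mutants. Of 51 measured, 11 were higher and 4 lower in TM than in WT MEFs, against 5.59% and 3.56% of all genes. In DM MEFs 25 were higher and 3 lower than in WT, against backgrounds of 5.28% and 5.67%. Both comparisons share the WT arrays. Tested directly, 2 of the 51 were higher and 15 lower in TM than in DM. Sp100, a nuclear body gene, rose by 3.47 in TM, Mx2 by 1.51 and Iigp1, an interferon-inducible GTPase gene, by 2.71. Oas3 and Isg20 fell in TM, at -1.12 and -1.05, and were at 0.70 and 0.11 from WT in DM MEFs. The interferon response motif, GAAA repeated after 2 further bases, occurred on either strand in 6 of the 7 genes that rose in TM and have a listed promoter, in 10 of the other 30 and in 3.4% of all promoters. The promoter of Gbp3, a guanylate binding protein gene that rose by 0.87, is shown as it holds overlapping copies in capitals, on the strand opposite to the gene. It lies at chr3:142559794-142560043 on the plus strand, written 5′ to 3′.
Gbp3: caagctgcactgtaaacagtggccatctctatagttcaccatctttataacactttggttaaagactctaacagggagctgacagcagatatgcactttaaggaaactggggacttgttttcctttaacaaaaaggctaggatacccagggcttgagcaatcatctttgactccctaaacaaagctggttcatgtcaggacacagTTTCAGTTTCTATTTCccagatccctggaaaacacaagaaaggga

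Among glycolytic enzymes and targets of hypoxia-inducible factor (HIF) falls outnumbered rises. HIF is held down by prolyl hydroxylases outside the ER that need oxygen, iron and ascorbate, and its targets include glucose transport, glycolysis and Ero1a itself. Of 57 measured genes 4 were higher and 15 lower, or 33.3% called against 9.15% of all genes. The median difference was -0.38 against -0.03 over all genes. Without the mutated Ero1a, 14 of 56 were lower. Slc16a3, the lactate exporter MCT4, read 11.68, 11.57 and 11.70 in WT, 9.96, 9.77 and 9.96 in DM and 9.27, 9.12 and 9.15 in TM arrays. The order WT, DM, TM held without overlap between the genotypes, and TM differed from WT by -2.47 (adjusted p = 4.53e-11 from limma). Bnip3, a mitophagy receptor gene, fell by 1.43, and Pdk1, which limits entry of pyruvate to the mitochondria, fell by 1.36. Other falls were those of Ndrg1 (-1.36), the phosphofructokinase genes Pfkl (-1.19) and Pfkp (-0.71), and the glucose transporter gene Slc2a1 (-0.67). The HIF hydroxylase genes Egln1 and Egln3, themselves HIF targets, fell as well, at -0.72 and -0.70.

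The promoters of Slc16a3 and Bnip3 are shown because both hold ACGTG, the core of the hypoxia response element, on at least one strand. The 250 bases before the start lie at chr11:120948817-120949066 on the plus strand for Slc16a3 and at chr7:138909507-138909756 on the minus strand for Bnip3. Capitals mark the motif, and in Bnip3 a match on each strand overlaps as CACGTG.
Slc16a3: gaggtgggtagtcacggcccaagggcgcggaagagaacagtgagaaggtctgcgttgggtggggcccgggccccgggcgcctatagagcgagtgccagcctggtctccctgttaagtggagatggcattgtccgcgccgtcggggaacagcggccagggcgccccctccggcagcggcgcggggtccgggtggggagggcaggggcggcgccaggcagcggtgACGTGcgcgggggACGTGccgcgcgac
Bnip3: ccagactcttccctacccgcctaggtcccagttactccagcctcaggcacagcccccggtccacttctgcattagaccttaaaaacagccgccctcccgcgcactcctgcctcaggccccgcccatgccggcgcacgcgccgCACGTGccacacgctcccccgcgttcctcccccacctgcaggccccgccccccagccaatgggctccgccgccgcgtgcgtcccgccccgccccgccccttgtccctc
Of the 14 members that fell and have a listed promoter, 10 held ACGTG on either strand, against 23 of the other 39 members and 20.9% of all genes, so the motif was common on this list whether or not a member fell. Pdk1, Pfkl, Pfkp and Car12 are the members that fell without these letters in the window.

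Not every member of the glycolysis and HIF list fell. Adm, which encodes the vasodilator adrenomedullin, rose by 1.78 and was 2.49 above DM. Pdk4, a pyruvate dehydrogenase kinase gene that responds to fasting, rose by 2.94, from 7.64, 7.68 and 7.64 in WT to 10.61, 10.53 and 10.63 in TM arrays. Tested between the mutants, TM exceeded DM in 4 of the 57 and lay below it in 10. Pdk1 and Ak4, an adenylate kinase gene, differed from DM by -1.17 and -1.31, both called.

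Falls also outnumbered rises among genes of sterol synthesis, uptake and efflux. SREBP2, encoded by Srebf2, drives this pathway together with NF-Y, which binds CCAAT boxes. Of 33 measured sterol genes 4 were higher and 12 lower in TM than in WT MEFs, or 48.5% called against 9.15% of all genes. The median difference was -0.42. Hmgcs1, which encodes HMG-CoA synthase, read 11.47, 11.41 and 11.51 in WT, 10.23, 10.32 and 10.29 in DM and 10.73, 10.73 and 10.75 in TM arrays. The TM arrays lay between WT and DM without overlap. Dhcr7, an enzyme of the last steps to cholesterol, fell by 1.24, and the lesser falls included Lss (-0.78), Sqle (-0.73), Idi1 (-0.70) and Srebf2 (-0.63). The members that rose were Ch25h, cholesterol 25-hydroxylase (3.35), Abca1, the cholesterol efflux pump (1.64), Nr1h3, an oxysterol receptor (1.18), and Mylip, which degrades the LDL receptor (0.94). In DM MEFs 19 of the 33 were lower, and tested directly 5 were higher and 2 lower in TM than in DM. All falls but that of Dhcr7 were under 2-fold, and after cyclic loess normalization 8 of the 33 genes were called lower.

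The Hmgcs1 promoter, at chr13:119690101-119690350 on the plus strand, is shown for its CCAAT boxes, here read as ATTGG on the gene's strand and written in capitals.
Hmgcs1: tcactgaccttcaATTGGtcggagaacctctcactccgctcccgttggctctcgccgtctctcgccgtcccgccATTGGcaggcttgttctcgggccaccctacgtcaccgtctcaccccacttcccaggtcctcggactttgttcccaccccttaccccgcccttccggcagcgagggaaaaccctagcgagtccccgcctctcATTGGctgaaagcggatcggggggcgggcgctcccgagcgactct
All 10 members that fell and have a listed promoter held CCAAT on either strand, as did 11 of the other 16 members and 38.8% of all genes. The sterol response element letters TCACNCCAC were found in 1 of these 10 promoters.

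**Figure D5:**
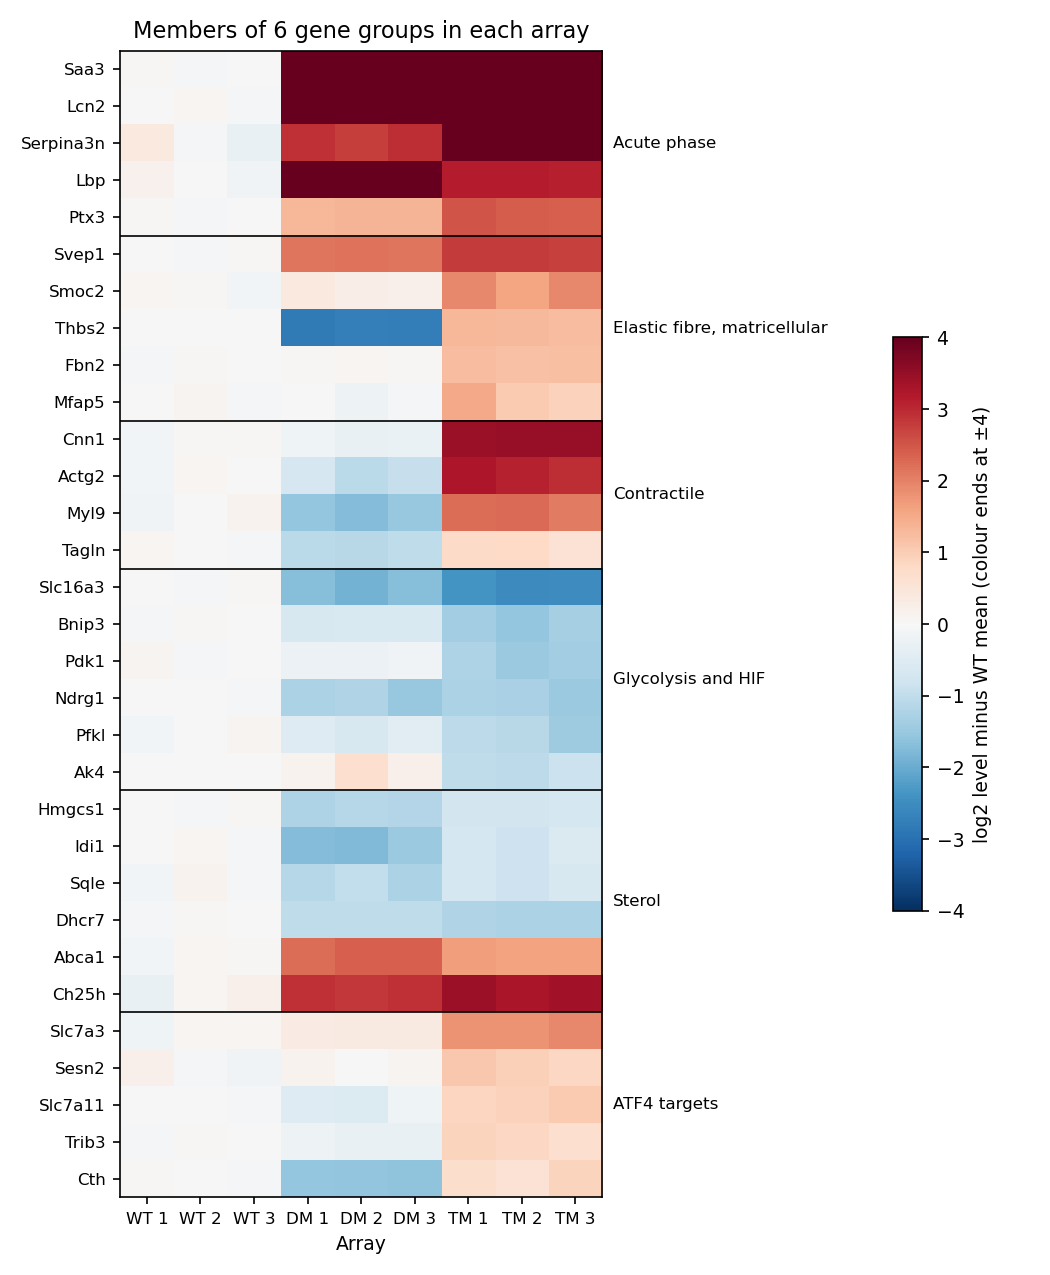
Level of 31 genes of 6 groups (rows) in each of the 9 arrays (columns), as the log2 difference from the mean of the 3 WT arrays, with red above and blue below WT and colours ending at 4. Acute-phase genes are red in DM and TM arrays, contractile genes are red in TM arrays only, and Cth, an ATF4 target, is pale red in TM and blue in DM arrays.

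Of 29 ER thiol oxidases and disulfide isomerases 3 were higher and 2 lower, or 17.2% called against 9.15% of all genes. The 2 lower members are the mutated Ero1a and Prdx4, so this share is raised by the genotype itself. Gpx7, an ER peroxidase that can also feed disulfide formation, rose by 0.81, from 7.82, 7.96 and 7.86 in WT to 8.75, 8.69 and 8.63 in TM arrays. Qsox1, a sulfhydryl oxidase gene, rose by 0.61. The peroxidase gene Gpx8 and the isomerase gene P4hb differed from WT by -0.059 and 0.089. Of 35 ER chaperone and degradation genes 4 were higher and 0 lower, or 11.4% called, which is near the share over all genes. They were Dnajb9 (1.05), Atf6 (0.77), Derl3 (0.74) and Herpud1 (0.63), the last just past the fold limit. Hspa5, which encodes BiP, and Hsp90b1, which encodes GRP94, were at -0.059 and -0.089 from WT.

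Targets of ATF4, the factor of the amino acid and ER stress response, were listed with genes of amino acid supply and tRNA charging. This list differed between TM and DM MEFs. Of 40 measured, 7 were higher and 0 lower in TM than in WT, or 17.5% called against 9.15% of all genes. Against DM, 22 were higher, where 4.68% of all genes were, and 0 were lower. At an unadjusted p under 0.05 with the fold limit and by Student's test, 0 were also lower than in DM. In DM MEFs 12 of the 40 were lower than in WT, against 5.67% of all genes. Cth, which makes cysteine from cystathionine, read 9.52, 9.48 and 9.43 in WT, 7.92, 7.88 and 7.87 in DM and 10.19, 10.06 and 10.37 in TM arrays. Slc7a11, the cystine importer, read 8.97, 8.97 and 8.91 in WT, 8.44, 8.41 and 8.77 in DM and 9.82, 9.87 and 9.99 in TM arrays. In both genes TM lay above and DM below WT, though for Slc7a11 the difference of DM from WT was under the fold limit. Slc7a3, a transporter of cationic amino acids, rose by 1.84, the stress gene Sesn2 by 0.95 and Trib3, a pseudokinase gene, by 0.79.

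Of 46 genes of glutathione metabolism and NRF2 9 were higher and 2 lower, against 7 and 4 after median centring and 10 and 0 after cyclic loess. On the deposited scale 23.9% were called against 9.15% of all genes. Gstk1, a mitochondrial and peroxisomal glutathione transferase gene, read 7.27, 7.42 and 7.42 in WT, 6.79, 6.85 and 6.68 in DM and 9.37, 9.06 and 9.23 in TM arrays. Ephx1, an epoxide hydrolase gene, rose by 2.09, and Gss, glutathione synthetase, fell by 0.62 on the deposited scale, a call lost with cyclic loess. Of 44 peroxide sources and scavengers 8 were higher and 1 lower, or 20.5% called. Maob, an amine oxidase that releases peroxide, rose by 2.09, the extracellular enzymes Gpx3 and Sod3 by 1.34 and 0.91, and Cyba, a subunit of NADPH oxidases, fell by 1.26. Of 20 genes for ascorbate transport and recycling 1 was higher and 2 lower. Glrx, glutaredoxin, which can reduce dehydroascorbate, rose by 1.17. The lower members were Cyb5r4 and the glucose transporter gene Slc2a1, which is also on the HIF list. The ascorbate transporter genes Slc23a1 and Slc23a2 were not called, at 0.10 and -0.28 from WT.

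Wnt pathway genes beyond the SFRPs included rises of ligand enhancers and receptors. Of 61 measured, 12 were higher and 4 lower, or 26.2% called against 9.15% of all genes. R-spondins are secreted proteins that strengthen Wnt signalling. Rspo2 read 7.16, 7.45 and 7.28 in WT, 7.91, 7.97 and 8.002 in DM and 11.47, 11.60 and 11.72 in TM arrays. Rspo3 read 7.33, 7.42 and 7.30 in WT, 7.75, 7.64 and 7.55 in DM and 11.35, 11.45 and 11.60 in TM arrays. Both were much higher in TM than in either other genotype, by 3.64 and 3.82 over DM. The receptor genes Fzd4, Fzd8, Fzd1 and Fzd7 rose by 1.06 to 1.91. The ligand gene Wnt7b, the antagonist Dkk2 and the nuclear factor Lef1 fell, at -2.62, -2.49 and -1.35.

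Other growth factor axes were called in both directions. Of 24 genes of the insulin-like growth factor (IGF) axis 7 were higher and 2 lower, or 37.5% called against 9.15% of all genes. Pappa, a protease that frees IGFs from their binding proteins, read 6.99, 7.17 and 7.13 in WT, 7.04, 7.18 and 7.02 in DM and 10.03, 9.95 and 9.82 in TM arrays. Igfbp5 and Igfbp3 rose by 1.53 and 1.30 while Igfbp6 fell by 1.81. Of 70 EGF, FGF, PDGF, VEGF and HGF family genes 17 were higher and 11 lower. Spry1, a feedback inhibitor of receptor tyrosine kinases, rose by 2.25, the EGF receptor ligand Ereg by 2.17 and Fgfr2 by 1.78. Gfra2, a co-receptor of the GDNF family, and Hgf, hepatocyte growth factor, fell, at -1.93 and -1.64. Of 33 retinoid genes 4 were higher and 4 lower, or 24.2% called. Rarres1 was at 4.64 and the retinoic acid carriers Crabp2 and Crabp1 were at -3.74 and -1.43. Crabp2 read 12.28, 12.28 and 12.12 in WT and 8.59, 8.44 and 8.45 in TM arrays and was not called between TM and DM, at -0.10 (adjusted p = 0.341 from limma).

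Markers of cell types gave the following values. Of 13 fibroblast markers 5 were higher and 1 lower in TM than in WT MEFs, or 46.2% called against 9.15% of all genes. The mean of the list was 10.7 to 10.8 in the WT arrays and 11.3 to 11.4 in the TM arrays, and the median difference was 0.20. Thy1, a surface marker of fibroblasts, read 7.66, 7.69 and 7.68 in WT, 7.33, 7.62 and 7.31 in DM and 10.77, 10.57 and 10.48 in TM arrays. Of 14 smooth muscle and pericyte markers 5 were higher and 9 were not called, or 35.7% called. The list mean was 8.62 to 8.68 in WT and 9.32 to 9.38 in TM arrays. The median difference was only 0.035, so the mean was raised by some members and not by the list as a whole. Cnn1, Actg2 and Tagln are on this list and on the contractile list, and the other members that rose were Lmod1 (0.80) and Cspg4, a pericyte proteoglycan (1.80). The part of a change in cell composition in the contractile genes was not tested. Of 12 mesothelial markers 0 were higher and 3 lower, or 25.0% called, with Msln, mesothelin, at 11.33, 11.30 and 11.40 in WT and 7.78, 7.78 and 7.63 in TM arrays. The list mean was 7.94 to 7.96 in WT, 7.26 to 7.38 in TM and 10.2 in the DM arrays, and the median difference of TM from WT was -0.12. Against DM, 10 of the 12 were lower in TM, so differences between TM and DM came with a difference in these markers whose part was not tested. Markers of epithelium, endothelium, macrophages and leukocytes, and skeletal muscle, 12 of each, held 0 calls in the limma fit. For every list and direction with 0 calls between TM and WT MEFs, 0 members also passed at an unadjusted p under 0.05 with the 1.5-fold limit, and 0 by the methods' t-test.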

How the data were processed

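The authors hybridised 9 RNA samples, 3 per genotype, to Affymetrix Gene ST 1.0 arrays and summarised the probes by RMA, a method that corrects background, normalizes between arrays and combines the probes of a set. The deposited values are log2 intensities of 35556 probe sets. RMA's version and the genome build are not given in the sources used here. Probe sets with 1 gene symbol in the platform annotation (21789) were kept, 1621 with several symbols and 12146 not listed were left out, and of 999 genes with several probe sets the brightest was used.

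Genotypes were compared with limma 3.58.1 in R 4.3.3, in 1 fit over all 9 arrays with 6 residual degrees of freedom, and p-values were adjusted by the Benjamini-Hochberg method over 19938 genes. The number of arrays limits the precision. On simulated data 50 of 50 genes were called at each log2 change of 1, -1, 2 and -2, and 0 of 19738 unchanged genes. The simulated noise had the array-to-array spread of these data, and the planted changes lay beyond the fold limit. It therefore checks the running of the fit and says nothing of false calls under spread between embryos or cultures. The methods' t-test is Student's test with the study's fold and p limits, run on RMA values alone. The study also used PLIER values, which are not analysed here. Named genes were the 3 mutated genes, 6 neighbours on each side of each, the 15 largest rises and 15 largest falls among called genes whose arrays did not overlap, and up to 4 called members with the largest change from any list or symbol family. Genes given beyond these were picked after their values were seen, and genes of the study's TGF-β and P38 lists were left out, though Il6 and P4ha3, which it assayed by PCR, were kept. The 36 gene lists, the 10 marker lists and the members were chosen with earlier results of these data known. In all, 9 motifs were searched on both strands of the 250 bases before each start: the hypoxia core ACGTG, the xenobiotic core GCGTG, the NF-Y box CCAAT, the C/EBP letters TTGCNNAA, the sterol letters TCACNCCAC, the antioxidant letters TGACNNNGC, the STAT letters TTCNNNGAA, the interferon motif and the CArG box. Matches may overlap, and the hypoxia and xenobiotic cores share letters. Only some pairs of motif and list are shown above, and none was tested. Among pairs not shown, the CArG box lay in 1 of 6 contractile genes that rose and in 9 of the other 31. The STAT letters lay in 1 of 9 acute-phase genes that rose and in 4 of the other 19. The antioxidant letters lay in 2 of 9 NRF2 and glutathione genes that rose and in 6 of the other 30.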

Additional observations from a re-analysis of the deposited data

How the results depend on the processing

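The naming rule gave 236 genes, of which 203 were called, and the direction of these 203 held under the 7 other fits and scalings and with each of 9 arrays left out. The counts depended on the fold limit: over 2-fold, 558 genes were higher and 223 lower in TM than in WT MEFs, and without a fold limit 2757 and 3581. Of the 236 genes, 127 differed between TM and DM MEFs, 78 of them over 2-fold, where 8.29% of all genes were called. Most of the 236 were chosen for their difference between TM and WT. Both comparisons share the TM arrays, so a high count follows from the choice and is no separate result. Among genes above the median level, 704 were higher. Leaving out each array in turn gave 1088 to 1151 higher and 674 to 813 lower genes and 125 to 129 differing from DM. Higher calls were 61.1% of all calls, 53.9% after median centring (1010 higher and 865 lower), 62.2% after quantile normalization and 67.0% after cyclic loess (1217 and 599). The methods' t-test called 1115 higher and 708 lower. With the replicate number as a block the counts were 1115 higher, 709 lower and 127 differing from DM. WT and TM arrays of the same number deviated from their group means with correlations of -0.15, -0.24 and -0.18, so the numbers were not taken to pair the arrays. Over all single genes and settings, 19 calls were lost and 8 gained, among them those near the fold limit of Herpud1 (0.63), Psmb9 (0.63), Aurka (-0.61) and Col5a3 (-0.61). A fit of the TM and WT arrays alone gives no difference from DM and was not run for it. With 3 arrays per genotype of unstated origin, biological spread is not known.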

Other observations

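Of 80 cadherin and junction genes 11 were higher and 6 lower in TM than in WT MEFs, or 21.2% called against 9.15% of all genes. The protocadherin genes Pcdh9 and Pcdh7 rose by 4.08 and 4.06, and Fat4, a large cadherin gene, by 3.03, from 7.63, 7.39 and 7.49 in WT to 10.53, 10.51 and 10.55 in TM arrays. The gap junction gene Gja1, which encodes connexin 43, fell by 1.53. Cdh11, a mesenchymal cadherin gene, differed from WT by 1.17 in TM and by -1.45 in DM MEFs. Of 69 axon guidance genes 26.1% were called. Here 10 were higher, with the netrin receptor gene Unc5c (2.66) and the ephrin receptor gene Epha4 (2.43) in the lead. The 8 lower genes had Sema7a (-1.69) and Efna2 (-1.49) at the end.

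Of 379 solute carrier genes 23 were higher and 8 lower, or 8.2% called against 9.15% of all genes. Slc7a2, a transporter of cationic amino acids, rose by 3.28 and Slc16a7, a monocarboxylate transporter, by 2.13, while Slc6a15 fell by 1.75. Of 92 potassium channel genes 7 were higher, with Kcnj2 at 2.47 and Kcnq5 at 1.92, and 3 were lower, or 10.9% called. Of 48 serpin genes 9 were higher and 0 lower in the limma fit, or 18.8% called, with Serpinb1a at 2.77 and Serpinb8 at 2.74. Of 347 Zfp zinc finger genes 19 were higher and 5 lower, or 6.9% called. Of 1027 olfactory receptor genes, which fibroblasts are not known for, 3 were higher and 0 lower in the limma fit.

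Cytochrome P450 and aryl hydrocarbon receptor genes were 7 higher and 1 lower of 41, or 19.5% called. Cyp1a1 read 6.38, 6.28 and 6.23 in WT, 6.33, 6.25 and 6.12 in DM and 8.13, 7.90 and 8.21 in TM arrays. Antigen presentation genes were 4 higher and 1 lower of 24, or 20.8% called, led by Cd80 at 3.43. Notch, hedgehog and hippo genes were 8 higher and 3 lower of 40, or 27.5% called, with the hedgehog co-receptor Boc at 2.13 and Nrarp, a Notch feedback gene, at -1.30. Adipogenic and lipid storage genes were 6 higher and 2 lower of 46, or 17.4% called, with Pparg at 1.42. Lysosomal genes were 7 higher and 1 lower of 67, or 11.9% called against 9.15% of all genes. Respiratory chain genes were 1 higher and 3 lower of 63, or 6.3% called. Genes of DNA replication and mitosis were 0 higher and 5 lower of 70 in the limma fit, or 7.1% called, all under 2-fold. After quantile normalization or cyclic loess 2 were lower. Neuron and glia markers were 2 higher and 0 lower of 12 (Stmn2, 2.10, and Map2, 0.73), cartilage and bone markers 1 higher and 0 lower of 10, and adipocyte markers 2 higher and 0 lower of 8.

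In windows of 15 neighbouring genes, 19628 in all, at most 8 were higher and at most 6 lower. The 49 windows with 7 or more higher lay at the Dlk1 to Dio3 domain, the Hoxa and Hoxb clusters and a stretch with Unc5c, Bmpr1b, Pdlim5 and the Gbp genes. The 4 windows with 6 or more lower lay at a stretch with Casp6, Lef1, Sgms2, Papss1 and Dkk2.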
